A study of Mus musculus with 16 samples.

Results

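Splicing factors, the kinases that phosphorylate SR proteins and the hnRNPs were examined in mouse liver as 64 genes of the 24539 in the count tables. They were taken by symbol, as the SR proteins Srsf1 to Srsf12 (11 genes present), the hnRNPs (20), the CLK kinases Clk1 to Clk4, the LUC7-like genes (3), the pre-mRNA processing factors named Prpf (13), subunits of the SF3A and SF3B complexes (9), Tra2a and Tra2b, and Srrm1 and Srrm2. The group was picked because Clk1, Luc7l2 and Prpf38b mRNA was already known to be lower in one diet group of these same libraries, so its mRNA values below are a description and support nothing by themselves.

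The livers came from male C57BL/6 mice that were 16 weeks old. The HB group ate a high-fat diet plus Betaine, a methyl donor, for 8 weeks, and the HF group ate the high-fat diet alone, so both groups share the high-fat diet and no group on ordinary chow was analysed here. Each diet had 2 libraries of total polyadenylated mRNA, 2 of mRNA bound to ribosomes carrying nascent chains (RNC, ribosome-bound mRNA) and 2 of RNA fragments enriched by immunoprecipitation for N6-methyladenosine (m6A). The labels state that material from independent experiments was pooled for sequencing, so every spread and p-value compares pools rather than single mice and may be technical.

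Pre-mRNA splicing is carried out by the spliceosome, whose U1 and U2 particles mark the ends of an intron before the U4/U6.U5 particle joins and the intron is removed. SR proteins bind exons and favour their use, hnRNPs bind introns and exons and often oppose it, and CLK kinases phosphorylate SR proteins in the nucleus and release them from nuclear speckles. In mammals, transcripts of Clk1, Clk4 and many SR protein genes are known to exist in part as polyadenylated forms that keep an intron and stay in the nucleus, or that hold an exon with a premature stop codon. The counts used here merge the splice variants of a gene, so such forms were not told apart.

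The HB mRNA libraries held 18011999 to 22492813 reads and the HF mRNA libraries 11437462 to 11570775, while the RNC libraries held 6508500 to 8659310 reads in HB and 5778439 to 6431510 in HF. The HB RNC libraries differed by a chi-square of only 1.40 per degree of freedom over 9197 genes, whereas the other replicate pairs gave 98.5 (HB mRNA), 98.0 (HF RNC) and 34.7 (HF mRNA). Their reads were therefore summed and counted as 1 sample. In the HF RNC pair, 2798 genes had 0 reads in one library and over 20 in the other, against 0 such genes in the HB RNC pair. Hepatocyte markers (8 of 8 detected in every library) summed to 101000 and 97200 CPM (reads scaled to library size) in HB mRNA and to 69800 and 74700 CPM in HF mRNA, as a liver label calls for. Markers of other cells were detected far below that level: 8 macrophage genes summed to 379 and 368 CPM in HB against 259 and 299 CPM in HF, and 6 neutrophil genes to 11.0 and 21.3 CPM in HB against 54.3 and 51.6 CPM in HF. The 7 stellate cell genes summed to 196 and 156 CPM in HB against 103 and 92.0 CPM in HF, and the 4 red cell genes to 347 and 843 CPM in HB against 168 and 161 CPM in HF. The 6 endothelial genes (138 and 172 CPM in HB against 167 and 175 CPM in HF) and the 4 cholangiocyte genes (3.95 and 7.49 CPM in HB against 6.39 and 6.74 CPM in HF) had overlapping sums and no call in mRNA. In the edgeR fit of mRNA, 3 of 8 macrophage, 3 of 4 red cell and 1 of 7 stellate cell genes were called higher in HB, and 3 of 4 neutrophil and 1 of 5 lymphocyte genes tested were called lower; their part in the values below was not tested.

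Of the 64 genes, 63 passed the filter on low counts in mRNA. Srsf12, an SR protein gene, had 3 reads in 1 HF library and 0 in the other 3 mRNA libraries. In RNC 60 passed, and the 4 others (Hnrnph2, Prpf38a, Srsf9 and Srsf12) had 0 reads in every RNC library. Per length, and averaged over the 4 mRNA libraries, the deposited RPKM (reads per kilobase of transcript, scaled to library size) was highest in Srsf5 at 143, followed by Luc7l2 at 91.7 and Srsf11 at 90.9. Among hnRNPs, Hnrnpa2b1 stood at 84.1 and Hnrnph1 at 84.0 RPKM, and of the SF3 subunits Sf3b1 was highest at 50.5 RPKM. Prpf8 stood at 20.6 RPKM and Hnrnpr at 1.58 RPKM, the lowest of the 63.

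In total mRNA, all 4 CLK kinases, 2 of 3 LUC7-like genes and 5 of 10 SR protein genes were called lower in HB livers than in HF livers, and Hnrnpab, Prpf19, Sf3b5 and Sf3b6 higher. In the edgeR quasi-likelihood fit of the 4 mRNA libraries, 22 of the 63 genes passed an adjusted p of 0.05 as lower in HB and 4 as higher, where 10.1% of all 12817 genes tested were called lower and 11.3% higher. The median log2 difference of the 63 genes was -0.22, against 0.01 over all genes tested. In 30 of them both HB libraries lay below both HF libraries, and in 12 both lay above, against 32.1% and 32.8% of all genes. Because the genes were picked on this contrast, nothing is read from these counts. In bulk liver, less RNA per cell and fewer cells that carry it cannot be told apart.

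**Figure D1:**
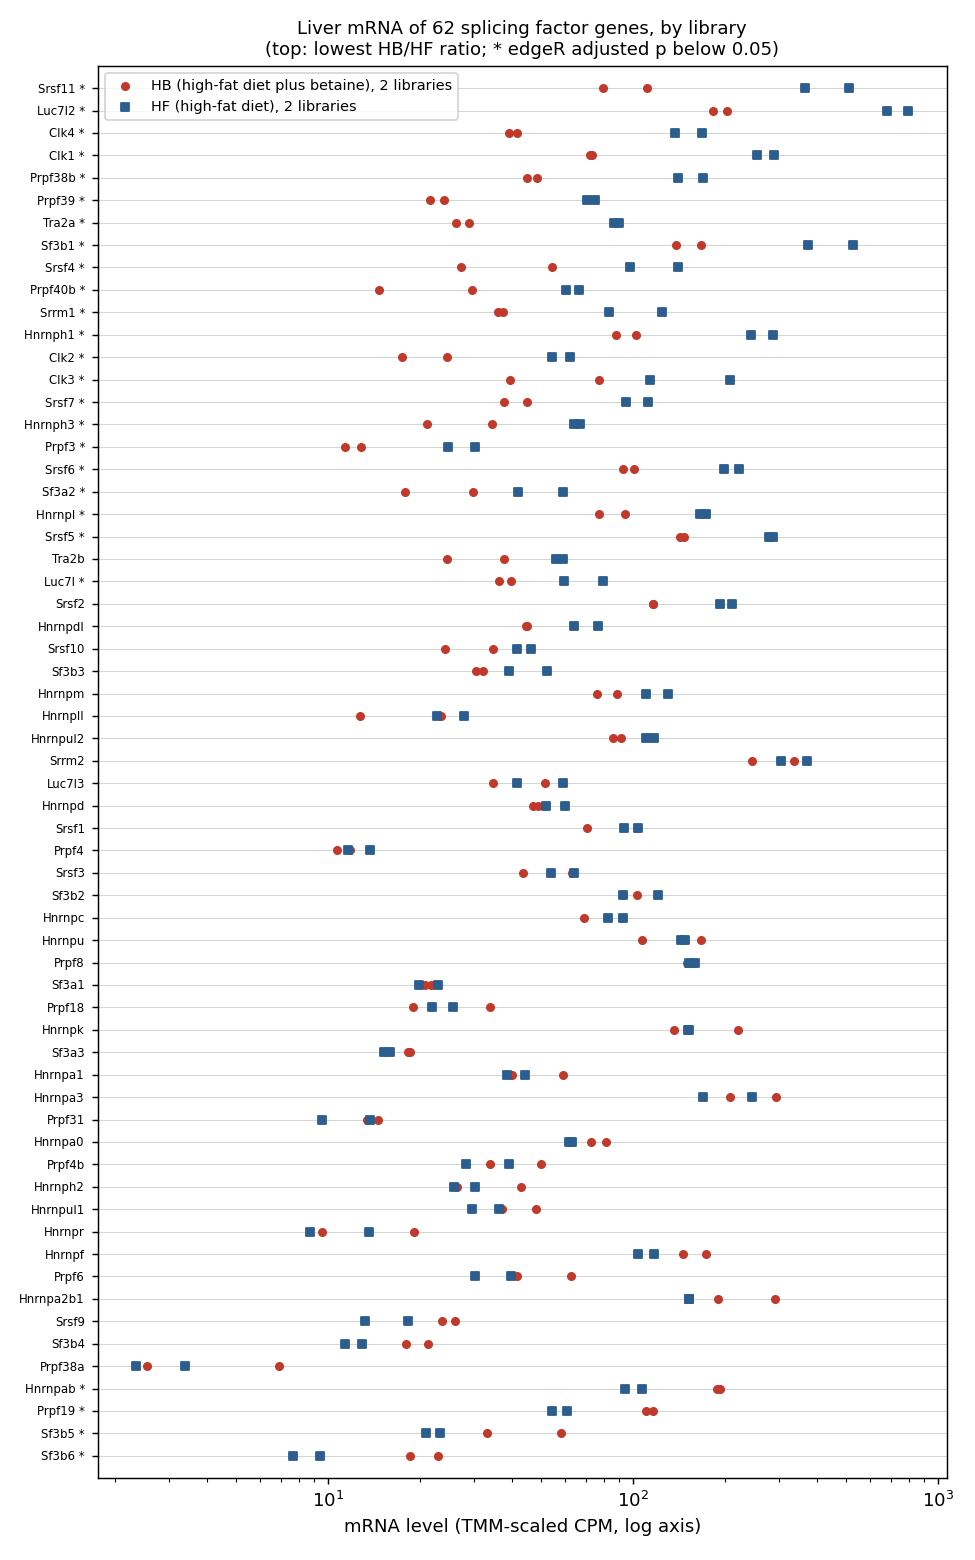
mRNA level of 62 splicing factor genes in TMM-scaled CPM on a log axis, with 2 HB libraries (red circles) and 2 HF libraries (blue squares) per gene, ordered from the lowest HB to HF ratio at the top. Srsf11, Luc7l2, Clk4 and Clk1 sit at the top with all HB points left of the HF points, and Sf3b6, Sf3b5, Prpf19 and Hnrnpab at the bottom with the order turned round.

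All 4 CLK kinases were lower in HB. Clk1 mRNA stood at 73.3 and 72.2 CPM in HB livers, against 290 and 254 CPM in HF livers, a log2 difference of -1.90 (SE 0.29). Clk4 stood at 39.3 and 41.5 CPM in HB, against 168 and 137 CPM in HF (log2 difference -1.92, SE 0.29). The HB libraries of both kinases lay close together, well below both HF libraries. Clk2 had 17.5 and 24.5 CPM in HB, against 54.4 and 61.9 CPM in HF (log2 difference -1.47). Clk3 had 39.6 and 77.5 CPM in HB, against 208 and 114 CPM in HF (log2 difference -1.46), and its replicates were the farthest apart of the 4 kinases. The groups did not overlap for any of them.

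The LUC7-like proteins accompany the U1 particle and influence the choice of 5′ splice site. Luc7l2 had 203 and 183 CPM in HB, against 680 and 798 CPM in HF (log2 difference -1.94, SE 0.30). Luc7l had 36.4 and 39.9 CPM in HB, against 79.9 and 59.3 CPM in HF (log2 difference -0.87). Luc7l3 had 51.4 and 34.8 CPM in HB, against 41.5 and 59.0 CPM in HF (log2 difference -0.22). Luc7l2 and Luc7l were called lower, whereas the Luc7l3 libraries of the diets overlapped and it was not called.

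Tra2a and Tra2b are SR-like proteins that bind exonic enhancers. Tra2a had 26.2 and 28.9 CPM in HB, against 89.8 and 86.6 CPM in HF (log2 difference -1.68, SE 0.27). Tra2b had 37.8 and 24.6 CPM in HB, against 59.1 and 55.9 CPM in HF (log2 difference -0.88). Neither gene's groups overlapped, and of the pair only Tra2a was called. Srrm1, a coactivator that bridges SR proteins, had 37.4 and 36.0 CPM in HB, against 124 and 83.4 CPM in HF (log2 difference -1.50). Srrm2, a scaffold of nuclear speckles, had 246 and 336 CPM in HB, against 306 and 372 CPM in HF (log2 difference -0.22). Srrm1 was called lower, and the Srrm2 libraries overlapped.

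Among the 10 SR protein genes tested, 5 were called lower in HB (Srsf4, Srsf5, Srsf6, Srsf7 and Srsf11) and 0 higher, with a class median of -0.88. Srsf11 showed the lowest log2 difference of all 63 genes at -2.21 (SE 0.33), with 79.5 and 111 CPM in HB, against 512 and 366 CPM in HF. Srsf4 had 27.3 and 54.2 CPM in HB, against 140 and 97.9 CPM in HF (log2 difference -1.55). In both genes each HB library lay below each HF library, and their HB values were less even than those of Clk1. Srsf7, which also serves in mRNA export, had 37.8 and 45.0 CPM in HB, against 112 and 94.7 CPM in HF (log2 difference -1.32). Srsf5, the gene with the highest RPKM, had 142 and 147 CPM in HB, against 287 and 279 CPM in HF (log2 difference -0.97). Srsf9 was the only SR protein gene above 0, with 23.7 and 26.1 CPM in HB, against 13.2 and 18.3 CPM in HF (log2 difference 0.66), and it was not called.

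The hnRNPs were spread on both sides of 0, with 10 above and 10 below, a median of 0.07, 3 called lower and 1 higher, and the other 16 between -0.65 and 0.66. Hnrnph1, which binds runs of G, had 87.8 and 102 CPM in HB, against 288 and 244 CPM in HF (log2 difference -1.49). Its relative Hnrnph3 had 21.1 and 34.4 CPM in HB, against 67.2 and 64.0 CPM in HF (log2 difference -1.24). Hnrnpl, which binds CA-rich RNA, had 77.3 and 94.1 CPM in HB, against 173 and 166 CPM in HF (log2 difference -0.98). These were the 3 genes called lower, each without overlap. Hnrnpab was called higher, with 193 and 189 CPM in HB, against 93.9 and 107 CPM in HF (log2 difference 0.93). Hnrnpa2b1, an RNA-binding protein described as a reader of m6A in human cells, had 292 and 190 CPM in HB, against 152 in both HF libraries (log2 difference 0.66), and was not called. Hnrnph1 and Hnrnph2 are close paralogs, and how the counts treat reads that fit both was not tested.

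The Prpf genes lay on both sides of 0, with 4 of 13 called lower, 1 higher and the other 8 between -0.17 and 0.73. Prpf38b, which resembles the spliceosome activation factor Prpf38a, had 45.0 and 48.3 CPM in HB, against 169 and 140 CPM in HF (log2 difference -1.73, SE 0.28). Prpf39, a protein of the U1 particle, had 23.9 and 21.6 CPM in HB, against 70.5 and 75.0 CPM in HF (log2 difference -1.68). Prpf40b, which is related to a yeast U1 protein, had 14.7 and 29.6 CPM in HB, against 66.7 and 60.1 CPM in HF (log2 difference -1.52). All 3 were called lower, as was Prpf3 of the U4/U6 particle at 11.4 and 12.8 CPM in HB, against 30.4 and 24.7 CPM in HF (log2 difference -1.19). Prpf8, the protein at the heart of the spliceosome, had 150 and 158 CPM in HB, against 160 and 153 CPM in HF (log2 difference -0.03), with overlapping groups. Prpf19, a ubiquitin ligase of the activated spliceosome, was called higher at 110 and 116 CPM in HB, against 54.3 and 60.6 CPM in HF (log2 difference 0.97).

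SF3A and SF3B subunits belong to the U2 particle, and Sf3b1 clasps the branch point. Sf3b1 had 138 and 167 CPM in HB, against 526 and 374 CPM in HF (log2 difference -1.56, SE 0.31). Sf3a2 had 17.9 and 29.9 CPM in HB, against 59.0 and 42.0 CPM in HF (log2 difference -1.08). Sf3b6, the small subunit that contacts the branch point adenosine, had 22.9 and 18.5 CPM in HB, against 7.65 and 9.41 CPM in HF (log2 difference 1.28, SE 0.32). Sf3b1 and Sf3a2 were thus lower while Sf3b6, and with it Sf3b5 at 33.2 and 58.0 CPM in HB, against 23.3 and 20.9 CPM in HF, was higher. The remaining 5 SF3 genes, between -0.55 and 0.70, were not called.

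The same fit called 9 of the 22 lower genes with each mRNA library left out in turn: Clk1, Clk2, Clk4, Luc7l2, Prpf38b, Prpf39, Prpf40b, Srsf11 and Tra2a. Without HF replicate 1 only those 9 were called, and none of the 4 higher genes. With the RNC libraries added to the fit, which raises the common dispersion to 0.481 from 0.0644, no gene of the 63 was called. Scaling by library totals instead of TMM put the median of all genes at -0.28 and left Sf3b6 as the only gene called higher.

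Promoters are shown for 4 of the 9 genes called lower in every such fit, because no other regulatory sequence of the genes was at hand. That these genes were all lower in HB follows from how they were chosen, and a shared control was not tested. They run from 250 bases before to 50 bases after the annotated start, 5′ to 3′, as RefSeq gives them for GRCm38.p6. The window of Clk4 lies at chr11:51262864-51263163 on the plus strand, Prpf38b at chr3:108911680-108911979, Srsf11 (the first of 2 listed) at chr3:158036557-158036856 and Tra2a at chr6:49264003-49264302, these last 3 on the minus strand. Capitals mark each match, on either strand, to 6 short promoter motifs that are spelled out below the sequences.
Clk4: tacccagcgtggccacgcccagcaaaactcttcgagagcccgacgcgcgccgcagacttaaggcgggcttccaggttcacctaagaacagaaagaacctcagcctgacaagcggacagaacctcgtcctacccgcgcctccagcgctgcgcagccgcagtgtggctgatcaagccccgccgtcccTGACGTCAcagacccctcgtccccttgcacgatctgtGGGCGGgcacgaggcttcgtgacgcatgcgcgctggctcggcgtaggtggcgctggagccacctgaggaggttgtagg
Prpf38b: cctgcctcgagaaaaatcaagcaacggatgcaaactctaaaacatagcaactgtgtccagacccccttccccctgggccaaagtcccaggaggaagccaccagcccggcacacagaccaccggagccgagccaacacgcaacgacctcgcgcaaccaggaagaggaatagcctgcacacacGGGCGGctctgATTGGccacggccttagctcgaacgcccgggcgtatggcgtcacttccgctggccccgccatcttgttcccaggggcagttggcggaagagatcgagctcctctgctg
Srsf11: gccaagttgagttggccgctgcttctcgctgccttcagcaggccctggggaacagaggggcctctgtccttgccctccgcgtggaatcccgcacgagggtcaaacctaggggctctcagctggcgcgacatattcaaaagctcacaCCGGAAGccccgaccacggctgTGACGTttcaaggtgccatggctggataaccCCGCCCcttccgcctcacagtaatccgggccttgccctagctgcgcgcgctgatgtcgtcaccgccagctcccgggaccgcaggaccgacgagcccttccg
Tra2a: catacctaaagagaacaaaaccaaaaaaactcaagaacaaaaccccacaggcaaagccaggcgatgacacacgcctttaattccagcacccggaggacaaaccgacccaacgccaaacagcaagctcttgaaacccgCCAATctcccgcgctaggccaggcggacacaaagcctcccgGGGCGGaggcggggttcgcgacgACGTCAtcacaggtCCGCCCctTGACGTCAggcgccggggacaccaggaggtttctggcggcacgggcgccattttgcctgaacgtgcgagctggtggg

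Each of the 4 promoters shown held a GC box, 3 of them (Clk4, Srsf11 and Tra2a) held at least 1 short site of the cyclic AMP response element, and none held a TATA box. In Clk4 and Tra2a that site overlaps its own reverse complement, a run that counts as 2 matches. The windows not shown differed in part. Luc7l2, whose only listed window lies inside the annotated gene span, had neither a GC box nor the cyclic AMP site there, and the second Srsf11 window had no cyclic AMP site. Of the windows shown, that of Tra2a also lies mostly inside its gene span, which reaches upstream to chr6:49264248. The first Srsf11 window lies in part inside its span, which reaches upstream to chr3:158036667. Over the 10 windows listed for 8 of the 9 genes, 8 held a GC box, 3 the cyclic AMP site and 0 a TATA box. RefSeq promoters were found for 56 of the 64 genes, as 73 windows, and compared with all 32851 windows of the same length in mouse. The GC box, with the letters GGGCGG, was in 69.9% of the 73 windows, against 35.7% of all windows of the mouse table. The core that ETS factors are known to bind, CCGGAAG, was in 30.1% of them, against 8.86% of all. The short site of the cyclic AMP response element, TGACGT, was in 21.9% of them, against 7.51% of all. The CCAAT box, which is named by its letters, was in 49.3%, against 37.4% of all. The E-box, CACGTG, was in 13.7% of them, against 7.15% of all, and the TATA box, searched as TATAAA, was in 6.85%, against 13.6% of all. These shares describe letters in a window and were not tested. The windows of the mouse table were not limited to genes expressed in liver, as nearly all genes of the group are.

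In ribosome-bound mRNA the diets were not distinguishable for any of these genes in the edgeR fit. It called 0 of the 60 genes and 0 of all 10986 tested (0% called in either direction), with a smallest adjusted p of 0.592 over all genes. At an unadjusted p under 0.05 there were 350 genes in all, 2 of them here (Hnrnpll and Srsf3). This fit has 3 samples and 1 residual degree of freedom, so it detects little, and a missing call does not show that the diets were alike. The log2 differences lay evenly around 0, with 30 above and 30 below and a median of 0.02.

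In ribosome-bound mRNA the log2 differences of the CLK kinases ran from -0.22 to 0.83, with a median of 0.39. Ribosome-bound Clk1 stood at 81.2 CPM in the HB sample, against 87.0 and 103 CPM in the HF libraries (log2 difference -0.22, SE 0.55). Clk4 stood at 249 CPM in HB, against 138 and 162 CPM in HF (log2 difference 0.73, SE 0.43). Clk2 stood at 119 CPM in HB, against 65.6 and 68.8 CPM in HF (log2 difference 0.83, SE 0.54). The HB value of Clk1 lay just under the HF libraries, while those of Clk2 and Clk4 lay above both. Clk3 had 422 CPM in HB, between 451 and 369 CPM in HF (log2 difference 0.04, SE 0.40).

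Luc7l2 had 437 CPM in the HB RNC sample, against 457 and 456 CPM in HF (log2 difference -0.06, SE 0.39). Prpf38b had 261 CPM in HB, against 198 and 224 CPM in HF (log2 difference 0.31, SE 0.42). Srsf11 had 210 CPM in HB, between 257 and 117 CPM in HF (log2 difference 0.17, SE 0.60). None of the 3 stood apart from HF by more than 1 SE. Tra2a had 51.5 CPM in HB, between 64.2 and 22.2 CPM in HF, and Tra2b had 19.5 CPM in HB, against 34.1 and 80.1 CPM in HF (log2 difference -1.55, SE 1.02). Luc7l had 48.8 CPM in HB, against 72.6 and 114 CPM in HF, and Luc7l3 had 99.2 CPM in HB, against 28.9 and 76.3 CPM in HF. Luc7l and Tra2b thus lay below both HF libraries and Luc7l3 above both.

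**Figure D2:**
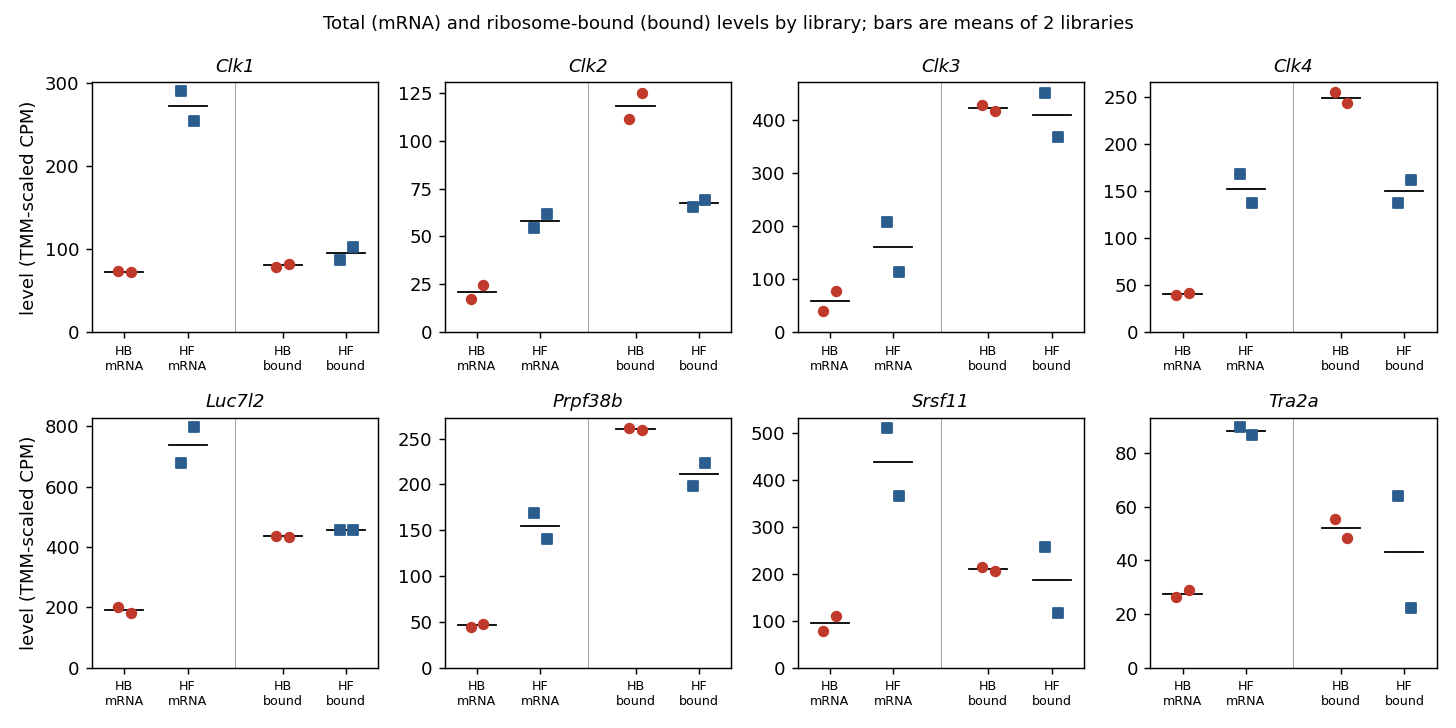
Level in TMM-scaled CPM of 8 genes in each library, with HB (red circles) left of HF (blue squares), total mRNA on the left and ribosome-bound mRNA (bound) on the right of each panel; bars are means of the 2 libraries, and the HB bound pair counted as 1 sample in the tests. Clk1 in total mRNA sits at 73.3 and 72.2 CPM in HB and at 290 and 254 CPM in HF, while its bound values lie between 79.1 and 103 CPM in all 4 libraries.

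In the SR, PRPF and SF3 classes, the RNC differences given are the farthest from 0 of each class at a mean of at least 5 CPM, and Sf3b4 follows with the genes at 0 reads. Farther from 0 than the smallest of these were also the log2 differences of Hnrnpa0 (-2.64), Hnrnpul2 (1.21) and Hnrnpk (-1.11). Ribosome-bound Srsf3, a small SR protein that also aids mRNA export, stood at 23.7 CPM in HB, against 106 and 70.6 CPM in HF (log2 difference -1.90, SE 0.73, adjusted p = 1 in edgeR). Srsf4 stood at 80.0 CPM in HB, against 165 and 151 CPM in HF (log2 difference -0.98, SE 0.50). Prpf4b, a kinase that phosphorylates proteins of the U4/U6.U5 particle in human cells, stood at 5.14 CPM in HB, against 24.6 and 34.6 CPM in HF (log2 difference -2.52, SE 1.79). In these 3 genes the HB sample lay below both HF libraries, as it did for 21 of the 60 genes (23.4% of all genes). It lay above both for 18 (36.6% of all genes). Sf3a2 was one of these, at 103 CPM in HB, against 50.5 and 25.2 CPM in HF (log2 difference 1.44, SE 0.74). Prpf18, which acts in the second step of splicing, was another, at 18.7 CPM in HB, against 0 and 5.59 CPM in HF.

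Of the genes with reads in mRNA, 5 had 0 ribosome-bound reads in HB and some in HF. The share of all genes with this pattern was not counted, so nothing is read from that number. Hnrnpll, a relative of Hnrnpl known from lymphocytes, had 51.9 and 28.4 CPM in HF. Set against 3 reads in the summed HB pair (0.206 CPM), it was at least 195-fold lower in HB against the HF mean. Its bound was 252-fold against HF replicate 1 alone and 138-fold against HF replicate 2 alone. Sf3b4 had 9.93 and 9.52 CPM in HF and was at least 47.3-fold lower in HB against the HF mean. The Sf3b4 bound was 48.3-fold against HF replicate 1 alone and 46.3-fold against HF replicate 2 alone. Hnrnpr had 3.59 and 13.3 CPM in HF and was at least 41.1-fold lower against the HF mean. The bound for Hnrnpr was 17.5-fold against HF replicate 1 alone and 64.6-fold against HF replicate 2 alone. Hnrnpul1 had 0 and 13 CPM in HF (at least 31.6-fold lower in HB against the HF mean), and Sf3b5 had 0 and 2.42 CPM (at least 5.88-fold). Against HF replicate 2 alone these bounds were 63.2-fold and 11.8-fold, and against HF replicate 1, itself at 0, there was none. These bounds cover counting error only and rest on 1 HB sample. The HF RNC pair itself disagreed on Hnrnpul1 and Sf3b5, and the part of such single-library losses in the 0 values was not tested. In total mRNA Hnrnpll had 23.5 and 12.7 CPM in HB, against 27.8 and 22.7 CPM in HF, so the gene was detected in both HB livers' pools. The 6 lymphocyte markers summed to 11.6 and 12.2 CPM in HB mRNA, against 22.1 and 28.4 CPM in HF mRNA, and all 6 had 0 reads in the HB RNC sample, with 6 and 5 of them at 0 in the HF RNC libraries; their part in the Hnrnpll value was not tested.

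Hnrnph2, Prpf38a and Srsf9 had 0 ribosome-bound reads in both diets, where 3 reads would be 0.206 CPM in HB, and 0.514 and 0.453 CPM in the HF libraries. Hnrnph2 nonetheless had 42.8 and 26.5 CPM in HB mRNA, against 30.2 and 25.8 CPM in HF mRNA. Ribosome-bound RNA of these genes was not detected, and what produced their 0 reads was not tested. Other ways of testing RNC gave a few calls, all lower in HB. DESeq2 called Hnrnpll and Srsf3. The fit with the HB libraries kept apart called Hnrnpc, Hnrnpll, Sf3b4, Srsf3 and Srsf4, and the fit with the mRNA libraries added called Hnrnpll, Hnrnpr and Sf3b4. The former counts the nearly alike HB RNC libraries as separate samples, so its spread within HB may be too small. The latter takes its spread in part from the mRNA libraries. The shares of all genes called in these fits are not given here, so nothing is read from these calls.

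**Figure D3:**
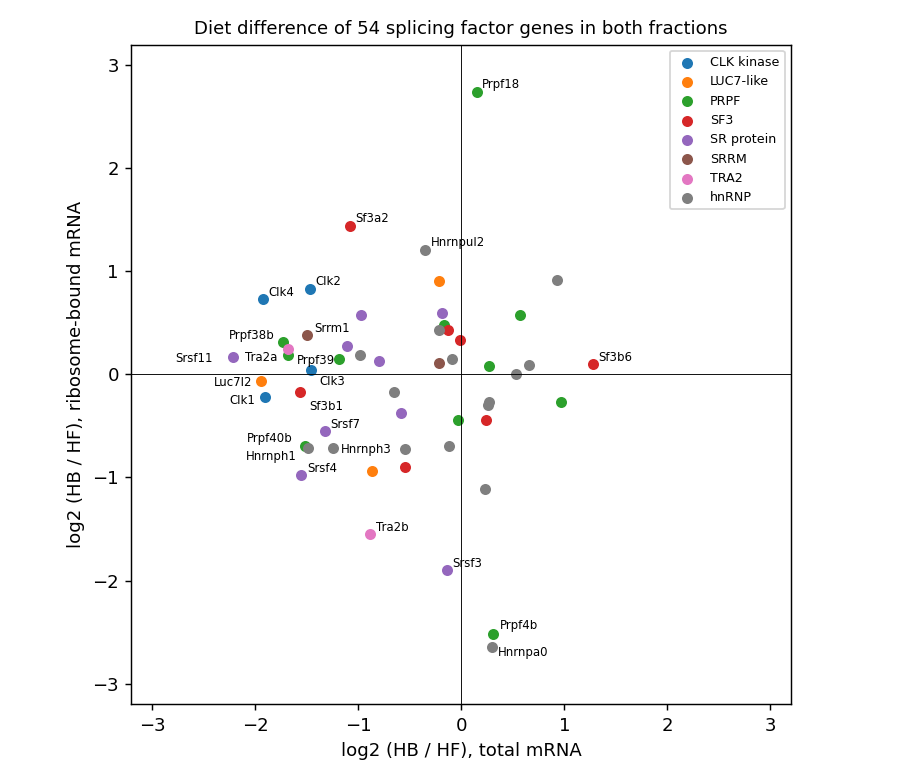
Log2 of HB over HF in total mRNA (horizontal) and in ribosome-bound mRNA (vertical) for 54 of the splicing factor genes with ribosome-bound reads in both diets, 1 point per gene, coloured by class. The 4 CLK kinases lie between -1.92 and -1.46 on the horizontal axis and between -0.22 and 0.83 on the vertical axis.

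The ratio of ribosome-bound to total mRNA was next compared within each diet, in 1 edgeR fit of 7 samples over 13454 genes. Both fractions are scaled to their own library, so the ratio is relative, and its median over all genes was -0.90 (log2) in HB and -0.64 in HF. In HB, 9 of the 63 genes were called higher in RNC and 15 lower, against 5.58% and 21.7% of all genes, with a median of 0.05. In HF, 3 were called higher and 16 lower, against 3.67% and 25.4% of all genes (29% in either direction, and 27.3% in HB), with a median of -0.54. The genes called higher in HB were 3 CLK kinases (Clk2, Clk3 and Clk4), Luc7l2, Prpf3, Prpf38b, Prpf39, Sf3b1 and Srsf7. All of them were also among the 22 genes called lower in HB mRNA. That mRNA is the denominator of the HB ratio and part of the contrast on which the genes were picked. Nothing is therefore read from their share against that of all genes. Those called higher in HF were Hnrnpc, Sf3a3 and Srsf7, so Srsf7 was called in both diets, at 2.04 in HB (SE 0.28, adjusted p = 0.0232) and 1.29 in HF (SE 0.24, adjusted p = 0.0176).

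The 3 highest ratios in HB belonged to Clk3 at 2.57 (SE 0.53, adjusted p = 0.0274 in edgeR), Prpf3 at 2.53 and Clk4 at 2.33. In HF they belonged to Prpf31 of the U4/U6 particle at 1.39 (SE 0.42, adjusted p = 0.0681), Sf3a3 at 1.36 (SE 0.33, adjusted p = 0.0359) and Sf3b6 at 1.32. The lowest fitted ratios belonged to genes with no ribosome-bound reads (Hnrnph2, Srsf9, Sf3b5 and Hnrnpul1), for which a fitted value is no bound. Of the genes with reads, the hnRNPs Hnrnpf and Hnrnpm, and Srrm2, had low ratios in both diets. Hnrnpf stood at -2.93 in HB and -2.37 in HF, Hnrnpm at -2.46 in HB and -2.27 in HF, and Srrm2 at -2.08 in HB and -2.40 in HF, each called by edgeR in both. Srrm2 had 83.7 CPM in HB RNC, against 246 and 336 CPM in HB mRNA, and 60.8 and 94.3 CPM in HF RNC, against 306 and 372 CPM in HF mRNA. Leaving out any 1 mRNA library ended every ratio call in these genes.

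The difference of this ratio between the diets was tested as an interaction in the same fit. It contains the mRNA contrast by which the genes were picked and is no independent support. Of the 63 genes, 5 passed as higher in HB, against 5.78% of all genes, and 3 as lower, against 3.67% (9.45% of all genes in either direction). The ratio of Clk4 was 2.33 in HB and -0.29 in HF, a difference of 2.62 (SE 0.34, adjusted p = 0.0352). Clk2 stood at 2.22 in HB and -0.06 in HF (difference 2.28, adjusted p = 0.0421), Prpf38b at 2.20 in HB and 0.18 in HF (difference 2.02, adjusted p = 0.0352), Luc7l2 at 0.89 in HB and -0.96 in HF (difference 1.85, adjusted p = 0.0352), and Clk1 at -0.13 in HB and -1.79 in HF (difference 1.66, adjusted p = 0.0456). Clk3, at 2.57 in HB and 1.08 in HF, was not called (difference 1.49, SE 0.69, adjusted p = 0.348). The 3 that passed as lower in HB were Hnrnpll, Sf3b4 and Hnrnpr, which had 0 ribosome-bound reads in HB. No gene passed with any 1 mRNA library left out.

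**Figure D4:**
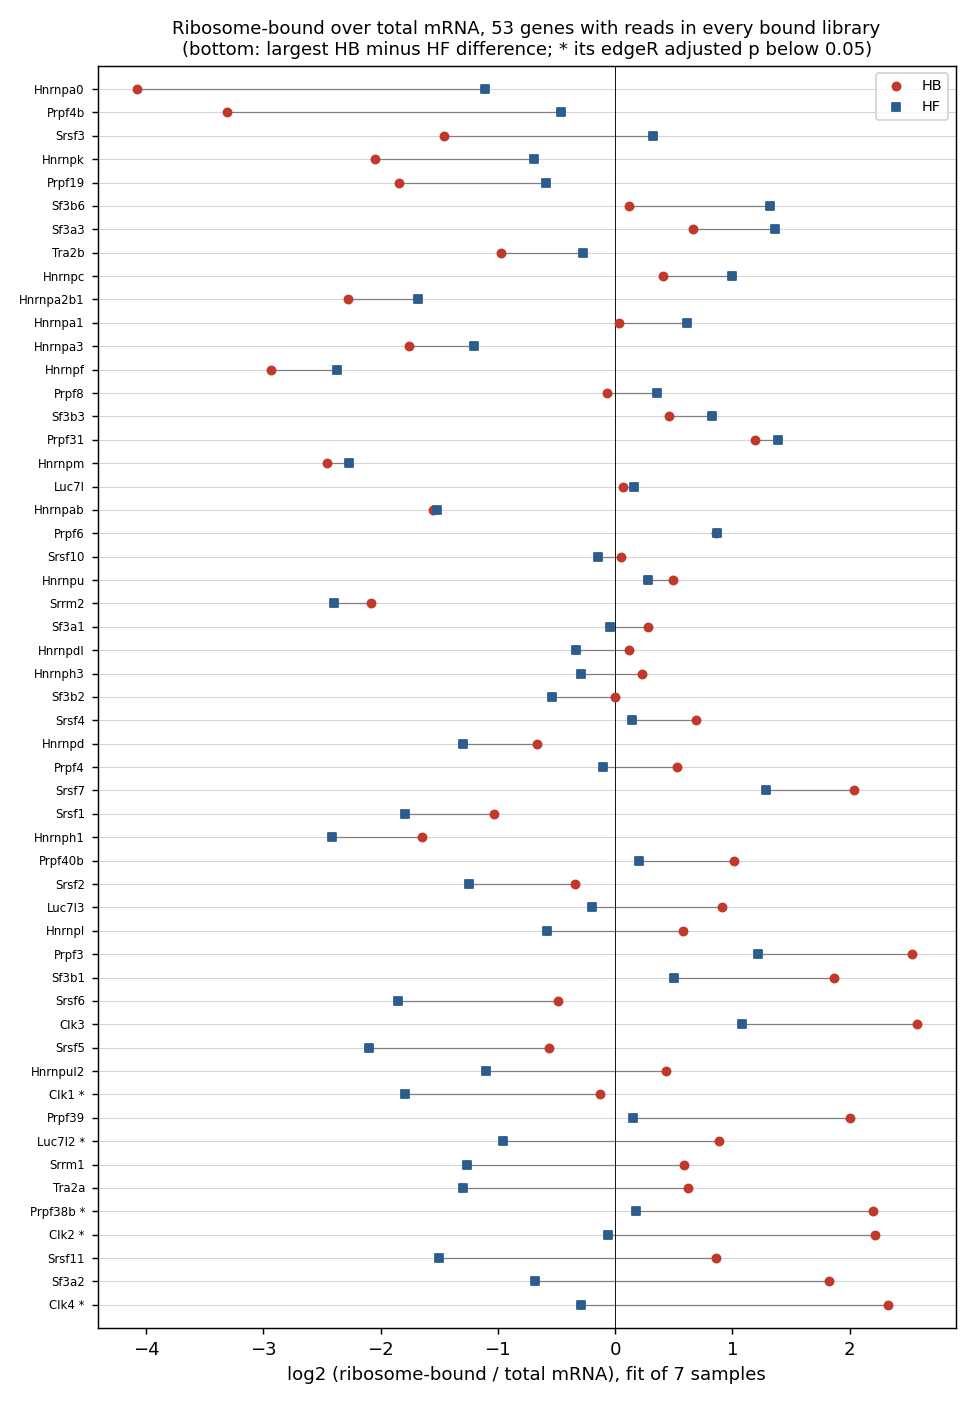
Log2 of ribosome-bound over total mRNA in HB (red circles) and HF (blue squares) for 53 of the genes with reads in every bound library, from the edgeR fit of 7 samples; grey lines join the diets, and the difference of HB minus HF grows down the plot. Clk4 at the bottom stands at 2.33 in HB and -0.29 in HF.

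Other genes of the splicing machinery were counted in the same fits. Of 113 such genes outside the group (snRNP proteins, cyclin L, SRPK kinases and other regulators), 111 were tested. In mRNA 24 of them (21.6%, against 10.1% of all genes) were called lower in HB and 2 (1.8%, against 11.3% of all genes) higher, with a median log2 difference of -0.23 against 0.01 over all genes. Ccnl1, a cyclin of the kinases that act on splicing, had 37.6 and 36.2 CPM in HB, against 197 and 142 CPM in HF (log2 difference -2.20, adjusted p = 0.00403 in edgeR). Ccnl2 (log2 difference -1.97) and Srpk2, an SR protein kinase of the cytoplasm (log2 difference -1.66), followed. The 2 higher genes, Snrpb (1.54) and Snrpc (1.39), encode small snRNP proteins. In RNC 0 of 110 were called, as were 0 of all genes. The difference of the ratio between diets was called higher for 4 (3.6%, against 5.78% of all genes) and lower for 4 (3.6%, against 3.67%), shares at or below those of all genes. Srpk2 had 2.51 and Ccnl1 2.14 for that difference, both among the higher calls.

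Noncoding RNAs of the nucleus were read in the same libraries. Of 6 noncoding RNAs listed as nuclear or snoRNA hosts, Neat1, the RNA of paraspeckles, Gas5 and Snhg1 were called lower in HB and 0 were called higher. Of all genes, 10.1% were called lower in mRNA and 11.3% higher. Neat1 had 459 and 446 CPM in HB, against 979 and 1250 CPM in HF (log2 difference -1.30, adjusted p = 0.014 in edgeR). Malat1, the RNA of nuclear speckles, had 686 and 569 CPM in HB, against 493 and 575 CPM in HF (log2 difference 0.23), and was not called. Neat1, a noncoding RNA, was also present in the RNC libraries, at 2040 CPM in HB, against 661 and 1290 CPM in HF. The 6 RNAs together summed to 1190 and 1060 CPM in HB mRNA, against 1550 and 1900 CPM in HF mRNA, and to 2420 CPM in HB RNC, against 1170 and 1840 CPM in HF RNC. Their part in the kinase and SR protein values was not tested. Immediate-early genes, which respond to handling, were called lower in 2 of 13 (Gadd45b and Dusp1), where 10.1% of all genes were called lower. The 14 listed summed to 323 and 407 CPM in HB mRNA, against 797 and 505 CPM in HF mRNA, and their part was not tested either.

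m6A was read from peaks that the authors called in each library, each with a fold enrichment of at least 6.00 as deposited. The lists held 22086 and 25718 peaks in HB, and 22060 and 24141 in HF. At least 1 peak fell within the span of 36 and 34 of the 64 genes in HB, and of 34 and 40 in HF. Of all genes tested in mRNA that could be placed on the genome, 58.9% and 59.6% had one in HB, and 59.7% and 62.6% in HF. Over the 63 genes that were tested in mRNA, 27.0% had a peak in all 4 libraries, against 35.9% of those genes. The 11 genes with no peak in any library, where 82.6% of all such genes had at least 1, included 5 SR protein genes (Srsf2, Srsf3, Srsf5, Srsf7 and Srsf9) and Hnrnpa2b1, Hnrnpab, Hnrnpd, Hnrnpk, Prpf19 and Sf3b4. A gene without a peak may hold m6A under the threshold of the caller.

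Peaks on the group merged into 226 sites, of which 184 were seen in 1 library, 24 in 2, 14 in 3 and 4 in all 4 (1.77%, against 2.87% of the sites of all genes). The 4 sites seen in all libraries lay in Hnrnpdl, Hnrnpm and Prpf4b, which had 2. The Prpf4b site at chr13:34901305-34901747 (mm10, 85.6% along the gene in the direction of transcription) had the highest enrichment, at 18.7 and 14.4-fold in HB, against 45.1 and 48.6-fold in HF. Both HB values were below both HF values at this site. The other Prpf4b site, at chr13:34883173-34884509, had 8.71 and 12.1-fold in HB, against 7.70 and 15.3-fold in HF, so its diets overlapped. These are the authors' own values per peak, given as a description, and no difference between the diets was tested. The site of Hnrnpm at chr17:33649771-33650555 (89.8% along the gene) had 10.6 and 15.4-fold in HB, against 10.3 and 17.9-fold in HF, so its diets overlapped. The site of Hnrnpdl at chr5:100036628-100037834 had 13.2 and 6.36-fold in HB, against 8.67 and 8.73-fold in HF, and overlapped too. By their highest peak in any library, the genes with peaks in all 4 were led by Prpf4b (48.6-fold, HF), Luc7l2 (29.7-fold, HB), Hnrnph3 (26.4-fold, HB), Hnrnpr (20.2-fold, HF) and Hnrnpm (18.7-fold, HF). A gene entered this ranking with a peak anywhere in its span in each library, so the peaks need not coincide. No Hnrnpr site was shared between libraries, and its 20.2-fold peak was seen in 1 library only (HF replicate 2).

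Sites seen in both HF libraries and neither HB library numbered 9 (3.98% of the sites, against 2.37% over all genes). They lay in 8 genes (Hnrnpm with 2, Luc7l2, Prpf38b, Prpf4b, Sf3b1, Srsf10, Srsf11 and Srsf4), 5 of which were called lower in HB mRNA. Of the 63 genes, which were picked on that contrast, 34.9% were called lower, against 10.1% of all genes. The share called lower among all genes with such sites was not counted, so no link is read from this. Prpf38b was the only gene of the group with peaks in both HF libraries and none in HB anywhere in its span, a pattern of 3.13% of all genes. The opposite pattern was found for 0 genes of the group and 2.40% of all genes. Its shared site, at chr3:108903807-108904228, was 1212 bases from the end of the gene and had 14.4 and 21.7-fold enrichment in HF. Since Prpf38b mRNA was also lower in HB, with 45.0 and 48.3 CPM against 169 and 140 CPM in HF, fewer reads and less methylation cannot be told apart from these lists, and the input libraries were not analysed here. Luc7l2 had peaks in every library, 9 and 3 in HB and 6 and 6 in HF. Its site at chr6:38566234-38566881 was seen in HF alone, at 13.2 and 7.96-fold.

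The reverse pattern, both HB libraries and neither HF library, was found at 1 site (0.442%, against 1.77% over all genes). It lay in Hnrnph3 at chr10:63015318-63015685, with 26.4 and 6.72-fold enrichment in HB, and overlapped another gene, so its assignment is uncertain. Among the kinases, Clk1 had 1 and 0 peaks in HB and 1 and 1 in HF, Clk2 had 0 and 0 in HB and 0 and 1 in HF, Clk3 had 2 and 0 in HB and 0 and 0 in HF, and Clk4 had 3 and 0 in HB and 0 and 1 in HF. No kinase had a site that both libraries of a diet shared. Of the 22 genes called lower in HB mRNA, 20 had a peak in at least 1 library (90.9%, against 82.6% of all genes tested in mRNA) and 5 had one in all 4 (22.7%, against 35.9%).

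**Figure D5:**
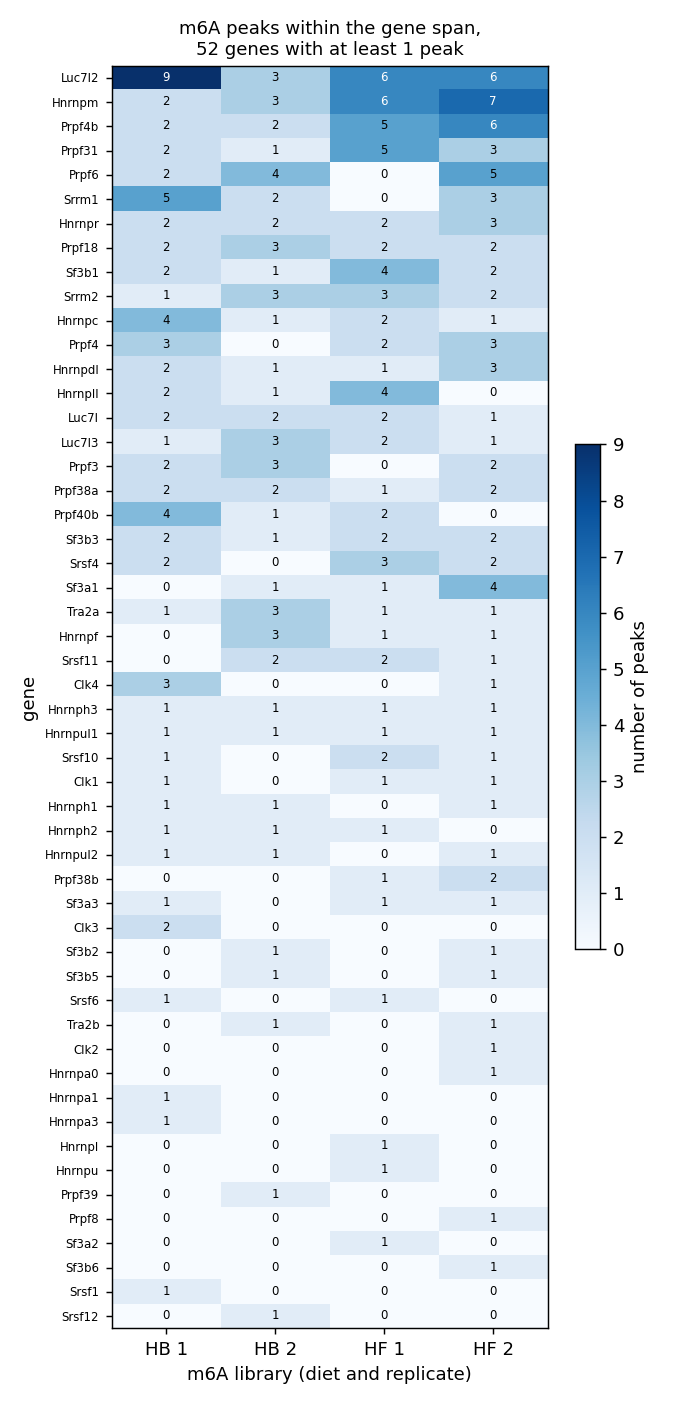
Number of m6A peaks within the span of each of 52 genes with at least 1 peak, by library, with HB left of HF and darker cells for more peaks. Luc7l2 has the most, with 9 and 3 in HB and 6 and 6 in HF, and Prpf38b has 0 and 0 in HB and 1 and 2 in HF.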

How the data were processed

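Livers of 2 diet groups were compared in mRNA and RNC read counts and in m6A peaks. The counts are reads per gene with splice variants merged, deposited by the authors without normalization. Per the file headers, the authors' RPKM divides a gene's reads by the length of its longest transcript and the library size. Peaks were called by the authors in each library and, per the file headers, carry a fold enrichment (a ratio over local background). The submitters' processing notes name mm10, HOMER 4.8, MACS2 2.1.0.20151222, HISAT2 2.0.4, cutadapt 1.9.3, edgeR and HTSeq 0.6.0, with no step assigned.

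Counts were tested over all genes with edgeR 4.0.16 (quasi-likelihood, TMM, filterByExpr, Benjamini-Hochberg threshold 0.05), and the code was tested on simulated data. CPM are TMM-scaled. The mRNA contrast used 4 libraries, the RNC contrast 3 samples, and the ratios 7 samples. Alternatives were DESeq2 1.42.0 and limma 3.58.1 on log2(RPKM + 1), other scalings, no filter, replicate blocks and each library left out. Where a group is left with 1 sample, it is assumed to vary like the others. Peaks were assigned to GRCm38.p6 gene spans, without strand or exons, and peaks that overlapped by at least 1 base formed a site. Always given were the CLK, LUC7-like, Tra2 and Srrm genes and Prpf38b. Of each other class, the largest changes (up to 3 in mRNA and 2 in RNC, at a mean of at least 5 CPM) and the highest RPKM were given. Further rules took the 3 highest and lowest ratios, the called extremes of the other splicing genes, and m6A genes with peaks of 1 diet. Hnrnpab, Prpf19, Hnrnpf, Sf3b5, Srsf9, Hnrnpdl, the noncoding RNAs and the promoters were singled out after their values were seen. The genes and lists were chosen with earlier results of these data known. One of the genes enters the counts and medians but is not reported here by name or plotted.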

Additional observations from a re-analysis of the deposited data

Results flagged for a closer look

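For 8 of the 63 genes (12.7%, against 9.45% of all genes) the ratio of ribosome-bound to total mRNA differed between the diets by the interaction test of edgeR. The HB minus HF difference (log2) was 2.62 for Clk4 (SE 0.34), 2.28 for Clk2 (SE 0.44), 2.02 for Prpf38b (SE 0.33), 1.85 for Luc7l2 (SE 0.30) and 1.66 for Clk1 (SE 0.33). It was -11.35 for Hnrnpll (SE 1.40), -10.48 for Sf3b4 (SE 1.18) and -9.96 for Hnrnpr (SE 2.01), fitted values that depend on the prior count because the HB RNC sample had 0 reads. Adjusted p ran from 0.0352 to 0.0477. The highest adjusted p over the alternatives was 0.201 for Clk4, Prpf38b, Luc7l2, Hnrnpll and Sf3b4, 0.221 for Clk2, 0.242 for Clk1 and 0.503 for Hnrnpr. The HB RNC arm is 1 sample, and the genes were chosen on the mRNA side of the test.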

How the results depend on the processing

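The numbers of genes called in mRNA (22 lower, 4 higher) became 0 and 0 in the fit with the RNC libraries, and 1 was called higher with total counts and with limma. With 1 mRNA library left out they ran from 9 to 21 lower and from 0 to 5 higher. The replicate numbers did not pair the samples (correlations of their deviations from -0.103 to 0.067). The replicate block gave 22 lower and 4 higher in mRNA, and the crossed block, chosen after seeing the data, 23 and 4. In the RNC contrast (0 lower) DESeq2 gave 2, separate HB libraries 5 and the fit of all libraries 3, and no fit without an HF RNC library had residual degrees of freedom. Without 1 library, the ratio calls ran from 0 to 29 lower and 0 to 9 higher in HF, from 0 to 22 lower and 0 to 13 higher in HB, and from 0 to 9 lower and 0 to 17 higher for the difference of the ratio. The 3 higher calls in HF became 1 without the filter, 7 with DESeq2, 5 with limma and 6 with separate HB libraries. For the difference, the 5 higher calls became 3 without the filter, 9 with DESeq2 and 9 with separate HB libraries, and the 3 lower calls became 5 with DESeq2, 1 with limma and 5 with separate HB libraries. Fits without an HF RNC library took their spread from mRNA alone. Fits with separate HB libraries counted the nearly alike HB RNC pair as independent samples, so their added calls are no independent support.

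At a fold enrichment of at least 10, sites in HF only went to 2, sites in all libraries to 2, genes with peaks in all libraries to 2 and genes in HB only to 2 (from 0). With an overlap of 50%, sites in HB only became 0 and sites in all libraries 2. Without 1 m6A library, sites ran from 2 to 51 (HB only), 13 to 59 (HF only) and 5 to 9 (all), and genes from 2 to 5 (HB only), 4 to 6 (HF only) and 20 to 22 (all).

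Of the gene values recomputed, signs turned only for log2 values that were not called. In mRNA these were Prpf18 (-0.12 with total counts, -0.14 with limma) and, over fits with 1 library left out, Prpf18 (-0.32 to 0.52), Hnrnpr (-0.21 to 0.79), Prpf8 (-0.09 to 0.02), Luc7l3 (-0.52 to 0.04, and 0.03) and Srsf3 (-0.43 to 0.11). In RNC they were Clk3 (-0.00 with DESeq2 or its size factors, -0.04 with total counts, -0.03 with limma) and Sf3b6 (-0.05 without HB replicate 1). Without 1 RNC library, they were Clk3 (-0.09 to 0.18), Tra2a (-0.32 to 1.2), Srrm2 (-0.19 to 0.46), Srsf11 (-0.29 to 0.82), Hnrnph1 (-1.32 to 0.33), Hnrnpa2b1 (-0.07 to 0.25), Prpf39 (-0.28 to 0.86), Prpf40b (-1.19 to 0.04), Prpf3 (-0.22 to 0.64), Sf3b1 (-0.41 to 0.10) and Sf3b6 (-0.05 to 0.24). For the ratio in HF they were Clk2 (0.03 with DESeq2 or its size factors, 0.09 with total counts, 0.11 with limma). With 1 library left out, they were Clk2 (-0.16 to 0.04), Luc7l (-0.21 to 0.45, and -0.03), Luc7l3 (-1.07 to 0.34, and 0.08) and Tra2b (-1.03 to 0.22). For the ratio in HB they were Clk1 (0.24 with total counts, 0.23 with limma) and Luc7l (-0.11 without an HB RNC library), and for the difference Luc7l (0.13 with total counts, 0.09 with limma, -0.38 to 0.28 with 1 library left out, and 0.10) and Tra2b (-1.19 to 0.06). The cause was not tested. For the 0 values in RNC, depth sets only the counting floors given above. In the HF RNC pair, 2798 genes had 0 reads in one library and over 20 in the other. What produced the 0 values was not tested.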
